A study of Gallus gallus with 23 samples.

Results

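Integrins are the receptors by which cells hold on to their matrix. The genes described here are 10 integrin subunits, the β chains ITGB1, ITGB3 and ITGB5 and the α chains ITGA1, ITGA4, ITGA5, ITGA6, ITGA8, ITGA9 and ITGAV. A gene was measured where the array annotation gave a probe set its symbol alone, and where several did, the probe set of highest mean over all arrays was taken. This held for 8 of the 10 subunits, out of 11528 genes with a symbol of their own on the array. ITGA1 is annotated on 2 probe sets that carry the symbol of a second gene as well, and no probe set used here is named for ITGA5, so neither has values here. ITGA6 has a second probe set, which is given where ITGA6 is described.

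The tissue was growth cartilage of chick embryos from the distal femur and the proximal tibiotarsus (TBT), the larger bone of the lower leg. Immobilised embryos had received decamethonium bromide, which holds the neuromuscular junction in block and leaves the muscles rigid, and control embryos the vehicle, Tyrode's solution, both from E10 (E, day of incubation). The 23 arrays fall into 8 groups, which are immobilised femur and immobilised TBT at E15 and control femur and control TBT at E12, E13 and E15. Each group has 3 arrays except E15 control femur, which has 2 because the authors left 1 array out. Each array is a pool from 4 embryos of unstated sex, and the comparisons of a pool with a pool say nothing of single embryos. The methods state that ossified bone, marrow and red blood cells were left out at dissection. RNA of haemoglobin genes was still present, as given below with the erythroid markers.

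An integrin is a pair of 1 α and 1 β chain, and the pair decides what is bound. ITGB1 pairs with most α chains and is the main β chain of chondrocytes, ITGAV pairs with ITGB3, ITGB5 and others to bind the RGD motif of fibronectin, vitronectin and osteopontin, and ITGA6 makes receptors for laminin. Inside the cell the β tail is held to actin by linkers such as talin, kindlin and the ILK, PINCH and parvin complex, and it signals through focal adhesion kinase. In cartilage, integrins are among the structures through which mechanical load is thought to reach the chondrocyte. ITGB3 is best known from osteoclasts and thrombocytes.

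All values are deposited log2 expression values, so a difference of 1 is a doubling, and levels of different probe sets are not set against each other. The cartilage label was checked with ACAN, COL9A1 and MATN1, which lay between 12.25 and 13.05 in every array. Array medians lay between 5.78 and 5.85, and Pearson's r of arrays of 1 group lay between 0.962 and 0.983 and that of arrays of different groups between 0.923 and 0.980. A gene is called where the limma p-value, adjusted over the 11004 probe sets past a filter on spread, was under 0.05, and all 8 measured subunits passed that filter. Every array has a code that ends in 05, 07 or 09. All E15 femur arrays carry 05 and all E15 TBT arrays 07 or 09, so for femur against TBT at E15 only the E12 arrays can tell element and code apart. Among the younger control femur arrays 2 of E12 carry 05, the third E12 array carries 09 and all 3 of E13 carry 07. Stage in the femur is thus largely bound up with the code. In bulk tissue, fewer cells of a type and less RNA per cell cannot be told apart.

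ITGB3 (probe set 15480880) was the only one of the 8 subunits called in any of the 10 comparisons. It was higher in E15 control TBT than in younger control TBT and lower in immobilised TBT than in control TBT. ITGB1 lay between 10.57 and 11.01 in the 23 arrays, ITGB5 between 8.35 and 8.86 and ITGAV between 9.01 and 9.54. ITGA4 ran over 7.14 to 8.30, ITGA6 over 7.87 to 9.0, ITGA8 over 6.04 to 7.47 and ITGA9 over 6.01 to 6.99, while ITGB3 ran over 5.03 to 6.86. All E12 and E13 arrays of ITGB3, at 5.12 to 5.54, lay below the lowest array median of 5.78, so its signal there was low.

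**Figure D1:**
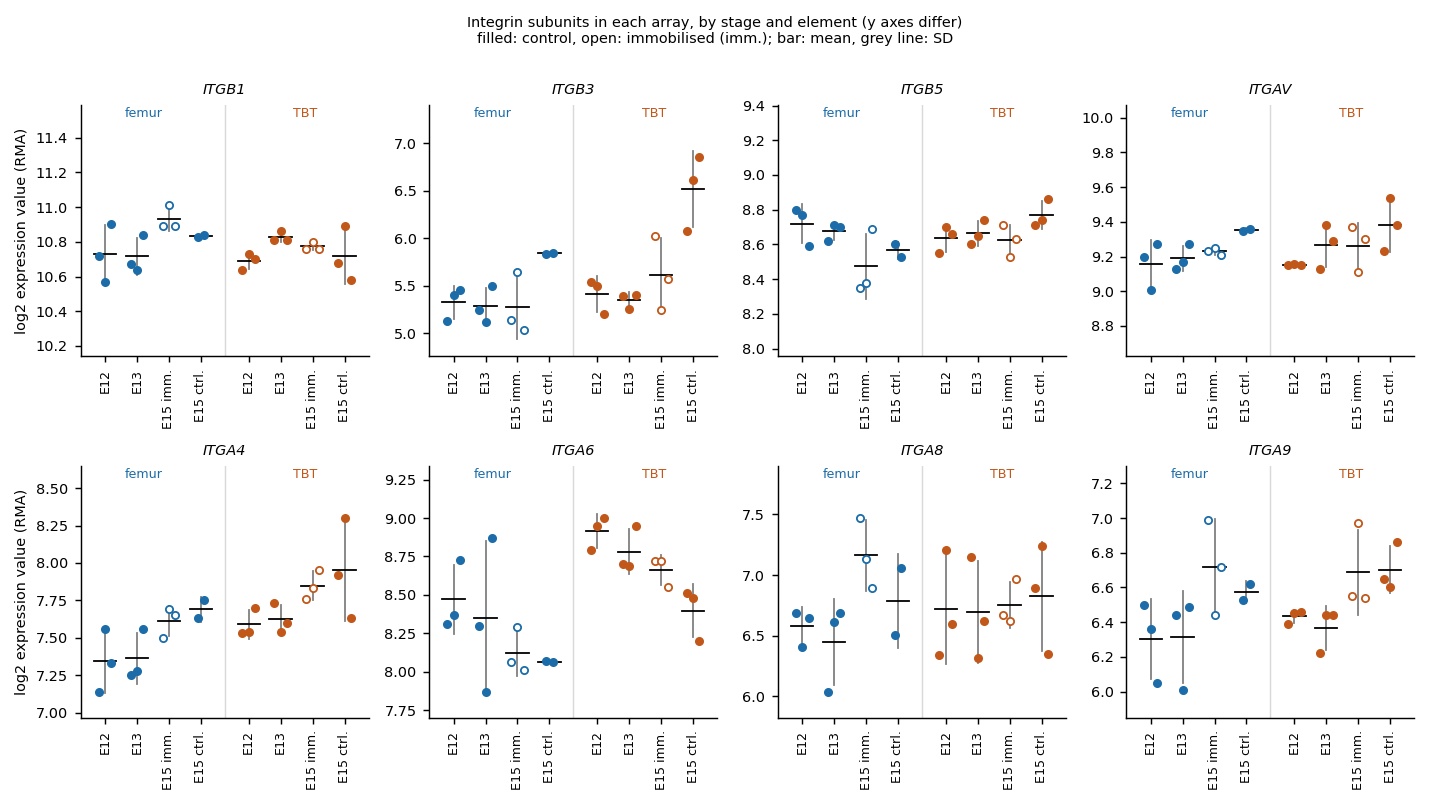
Log2 expression value (y axis, RMA, a scale of its own in each panel) of the 8 measured integrin subunits in each array, for femur (blue) and TBT (orange) at E12, E13 and E15. Filled circles are control arrays, open circles immobilised arrays, bars are means and grey lines 1 SD (n = 3, or 2 for E15 control femur); the 3 E15 control TBT arrays of ITGB3, from 6.08 to 6.86, lie above all its other arrays.

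In the TBT, ITGB3 rose with stage. It had values of 5.54, 5.50 and 5.20 at E12, of 5.39, 5.25 and 5.40 at E13, and of 6.08, 6.62 and 6.86 in E15 control TBT. All 3 E15 arrays lay above all 6 younger ones, which among all probe sets tested was so for 6.16%. The mean was 6.52 at E15 against 5.38 over E12 and E13, a rise of 1.14 (SE 0.18, 95% interval 0.76 to 1.52, limma adjusted p = 0.000845) or 2.20-fold. It was the only one of the 8 subunits called in this comparison, in which 9.46% of all probe sets were called and 3.74% were called higher. Within code 07 the difference was 1.00 (2 arrays against 2) and within code 09 it was 1.34 (1 array against 3).

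In the femur ITGB3 was not called with stage. It had 5.13, 5.40 and 5.45 at E12, 5.24, 5.12 and 5.50 at E13, and 5.84 and 5.85 in E15 control femur. Both E15 arrays lay above the 6 younger ones, as for 13.1% of all probe sets. The difference was 0.54 (SE 0.21, adjusted p = 0.0951), in a comparison in which none of the 8 subunits was called and 12.2% of all probe sets were (5.26% higher). Set against the TBT, the stage change of the femur was lower by 0.60 on the log2 scale (95% interval -1.18 to -0.03, adjusted p = 0.468), and in that test 0 of 11004 probe sets were called, with 1152 (10.5%) at an unadjusted p under 0.05. Between E13 and E12, over both elements, 0 of 11004 were called as well, with 822 (7.47%) at an unadjusted p under 0.05, and ITGB3 differed by -0.05 (SE 0.15).

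With immobilisation, ITGB3 fell in the TBT. Immobilised TBT had 6.02, 5.24 and 5.57, against 6.08, 6.62 and 6.86 in control TBT of the same age, so the highest immobilised array lay just under the lowest control array. The means were 5.61 ± 0.39 and 6.52 ± 0.40 (SD, n = 3 each), a difference of -0.91 (SE 0.21, 95% interval -1.35 to -0.47, adjusted p = 0.0147). On the linear scale, immobilised TBT was at 53.2% of control TBT. ITGB3 was the only 1 of the 8 subunits called here, against 5.74% of all probe sets called and 2.86% called lower, and 10.9% of all probe sets had immobilised arrays that lay wholly below the control arrays. The call did not hold on a fit of these 6 arrays alone (adjusted p = 0.172), nor without control replicate 3 (-0.74, adjusted p = 0.096), immobilised replicate 2 (-0.73, adjusted p = 0.083) or immobilised replicate 3 (-0.89, adjusted p = 0.0524). Within code 07 the difference was -0.45 (1 array against 2) and within code 09 it was -1.22 (2 against 1).

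In the femur the same gene had 5.14, 5.65 and 5.03 with immobilisation and 5.84 and 5.85 in the control. The arrays did not overlap, which was so in this direction for 17.8% of all probe sets in a comparison of 3 arrays with 2. The difference was -0.57 (SE 0.23, 95% interval -1.06 to -0.08, adjusted p = 0.179), and none of the 8 subunits was called, against 4.39% of all probe sets (2.5% lower). The difference between the effects, femur minus TBT, was 0.34 (95% interval -0.31 to 0.99, adjusted p = 0.822), so an unequal fall of ITGB3 in femur and TBT was not shown. No subunit was called in that test, in which 0.182% of all probe sets were.

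Between the elements at E15, control femur lay below control TBT in all arrays of ITGB3 (difference -0.68, SE 0.23, adjusted p = 0.189), and with the array code in the fit the difference was -0.57 (adjusted p = 0.456). Femur arrays lay wholly below TBT arrays for 16.1% of all probe sets in this comparison, and 0.209% were called, none of the 8 subunits among them.

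The rise of ITGB3 with stage and its fall with immobilisation share the 3 E15 control TBT arrays. Immobilised TBT, at 5.61 ± 0.39, lay above the means of E12 TBT (5.41 ± 0.19) and E13 TBT (5.35 ± 0.08) by less than 1 SD of its own arrays. Immobilised femur, at 5.27 ± 0.33, lay close to E12 femur (5.33 ± 0.17) and E13 femur (5.29 ± 0.19). ITGB3 passed the filter on spread only through E15 control TBT: its standard deviation on the linear scale was 20.5 over all arrays and 8.60 without that group, below the limit of 10. A gene that passes in this way had to differ there, and without any filter its adjusted p was 0.00164 for stage and 0.0276 for immobilisation.

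**Figure D2:**
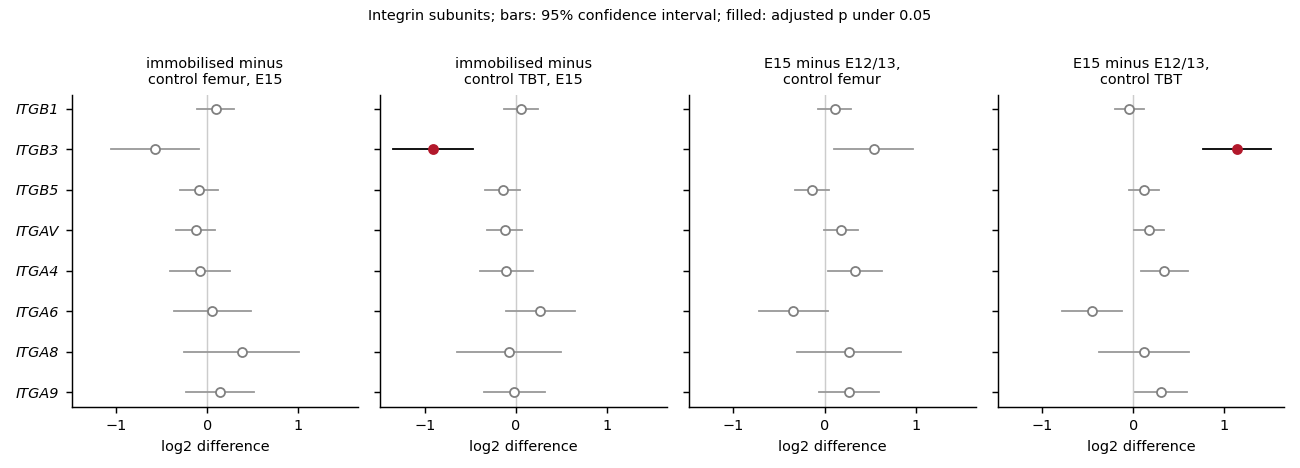
Log2 difference (x axis) of each integrin subunit (rows) in 4 comparisons, immobilised minus control at E15 in femur and TBT and E15 minus the mean of E12 and E13 in control femur and control TBT, with 95% confidence intervals from limma. Filled red points are called; ITGB3 is filled in both TBT panels, at -0.91 in immobilised TBT and at 1.14 for stage in TBT, and all other points are open.

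Markers of blood-derived cells are given beside ITGB3. SPI1, the transcription factor of macrophages and osteoclasts, had 6.84, 6.25 and 7.02 in immobilised TBT and 6.99, 7.44 and 7.71 in control TBT. ATP6V0D2, a proton pump subunit of osteoclasts, had 6.79, 3.44 and 5.91 in immobilised TBT and 6.19, 7.39 and 7.86 in control TBT. Immobilised TBT replicate 2 was the lowest, and control TBT replicate 3 the highest, of the 6 arrays in ITGB3, SPI1 and ATP6V0D2 alike. Control TBT replicate 1, above all immobilised arrays in ITGB3, was not above them all in SPI1 or ATP6V0D2, and ATP6V0D2 was at 7.12 and 6.57 in E15 control femur, where ITGB3 was at 5.84 and 5.85.

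Of 20 listed markers of leukocytes, thrombocytes and osteoclasts, 10 are on the array and 8 were tested. ITGB2, among the 8, passed the filter on spread only through the E15 control arrays. ATP6V0D2 lay at 2.15 to 4.83 at E12 and E13, where its spread on the linear scale was under the limit of 10. Members that pass in this way had to differ at E15, so the stage counts and medians of this list are set in part by the filter. With stage in the TBT 7 of the 8 were called higher, at a median difference of 1.05 (SPI1 1.26, ATP6V0D2 3.29 and MMP9 1.29 among them). Over all probe sets 3.74% were called higher there and the median was -0.01. In the femur 6 of 8 were called higher, at a median of 0.80, against 5.26% of all probe sets. With immobilisation of the TBT none was called, all 8 lay below 0 and the median was -0.57; in the femur 4 lay above 0 and 4 below, at a median of -0.11. The mean level of the 10 markers, each relative to its own average, ran from -0.31 to 0.59 in immobilised TBT, from 0.37 to 1.20 in E15 control TBT and from -0.55 to -0.17 in E12 and E13 TBT. CTSK, ACP5 and CSF1R, which define osteoclasts and macrophages, have no probe set of their own here.

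The haemoglobin genes HBAD and HBAA averaged 12.12 and 11.42 over the 23 arrays, so RNA of red blood cells was present. Erythroid markers were called in the same comparisons. With stage in the TBT 4 of 5 were called higher (median 1.00), against 3.74% of all probe sets. With immobilisation of the TBT 2 of 5 were called lower (median -0.63), against 2.86% of all probe sets. The part of these cells in the values of ITGB3 was not tested. The 3 genes whose pattern over the 23 arrays was most like that of ITGB3 were RAC2 (r = 0.861), a GTPase of blood cells, SPI1 (r = 0.845) and VAT1L (r = 0.842). Among the subunits the highest r with ITGB3 was that of ITGAV, its α partner, at 0.663. The genes most like ITGAV itself were the blood cell markers ATP6V0D2 (r = 0.838) and ITGB2 (r = 0.813). The part of blood cells in the values of ITGAV was not tested. These correlations run over arrays that share group differences and are descriptions.

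**Figure D3:**
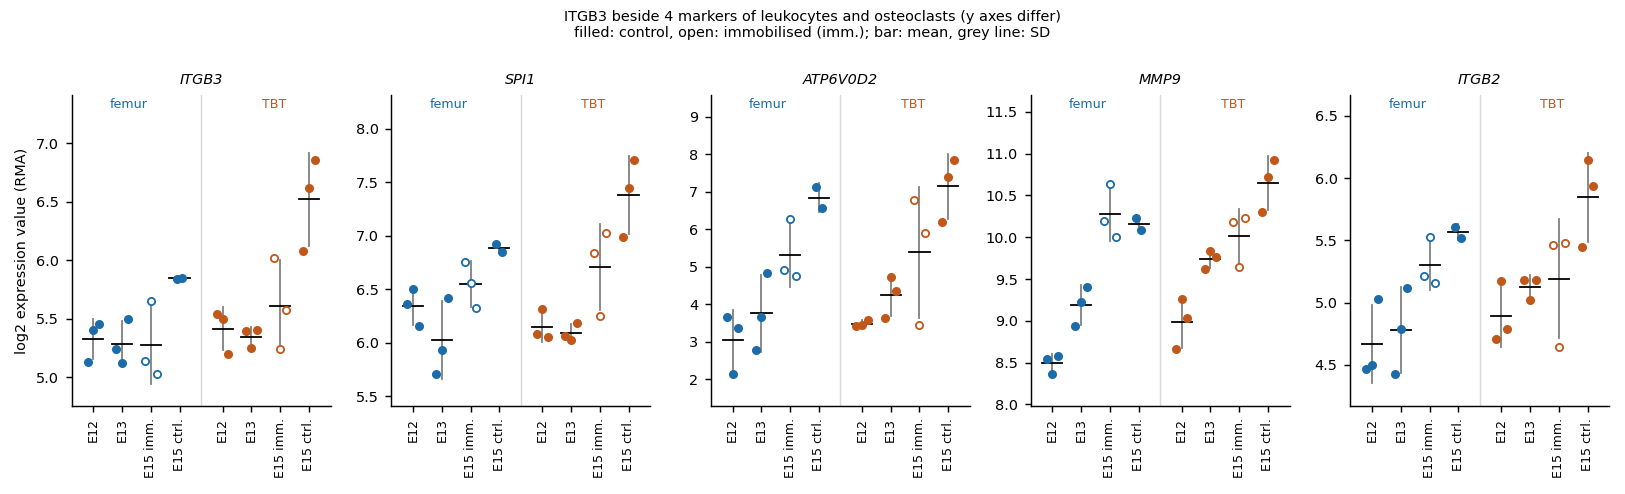
Log2 expression value (y axis, RMA, a scale of its own in each panel) of ITGB3 and of SPI1, ATP6V0D2, MMP9 and ITGB2, markers of leukocytes and osteoclasts, in each array. Filled circles are control and open circles immobilised arrays, bars are means and grey lines 1 SD; in all 5 panels the highest array is of E15 control TBT, and the lowest open circle of the TBT is the same array, replicate 2.

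The other β chains were not called in any comparison. ITGB1, the common partner, had 10.89, 11.01 and 10.89 in immobilised femur against 10.83 and 10.84 in control femur, a difference of 0.10 (95% interval -0.11 to 0.30, adjusted p = 0.648). All 3 immobilised arrays lay above the controls, as for 18.6% of all probe sets. In the TBT it had 10.76, 10.80 and 10.76 with immobilisation and 10.68, 10.89 and 10.58 in the control (0.06, 95% interval -0.13 to 0.24, adjusted p = 0.8). With stage it differed by 0.11 in the femur and by -0.04 in the TBT, and none of the 4 intervals reached beyond 0.30 from 0.

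ITGB5, which pairs with ITGAV in a receptor for vitronectin, had 8.35, 8.38 and 8.69 in immobilised femur and 8.60 and 8.53 in control femur. Immobilised TBT had 8.71, 8.53 and 8.63 and control TBT had 8.71, 8.74 and 8.86. The differences were -0.09 and -0.15 (adjusted p = 0.671 and 0.405), and the groups overlapped in both elements. With stage ITGB5 differed by -0.13 in the femur and by 0.12 in the TBT, and the difference between these, femur minus TBT, was -0.25 (95% interval -0.50 to -0.01, adjusted p = 0.474).

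ITGAV, the α chain of the RGD receptors, had its highest control means at E15 in both elements. Its values were 9.20, 9.01 and 9.27 at E12, 9.13, 9.17 and 9.27 at E13 and 9.35 and 9.36 at E15 in control femur. In control TBT it had 9.15, 9.16 and 9.15 at E12, 9.13, 9.38 and 9.29 at E13 and 9.23, 9.54 and 9.38 at E15. The differences of 0.18 and 0.17 (SE 0.09 and 0.08, adjusted p = 0.205 and 0.179) were not called. Immobilised femur lay at 9.21 to 9.25, below both control arrays as for 17.8% of all probe sets (difference -0.12, adjusted p = 0.548), and immobilised TBT had 9.37, 9.11 and 9.30, a difference of -0.12 from control TBT (adjusted p = 0.513).

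Of the 8 subunits, ITGA6, a chain of laminin receptors, differed most between femur and TBT at E12 and E13. Its mean was lower in the femur at every stage, at 8.47 in the femur against 8.91 in the TBT at E12 and at 8.35 in the femur against 8.78 in the TBT at E13. At E15 it was 8.12 in immobilised femur against 8.66 in immobilised TBT, and 8.07 in control femur against 8.40 in control TBT. At E12 the femur had 8.31, 8.37 and 8.73 and the TBT 8.79, 8.95 and 9.0. At E13 the femur had 8.30, 7.87 and 8.87 and the TBT 8.70, 8.69 and 8.95, and the third femur array lay inside the range of the TBT.

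Over E12 and E13 together the difference of ITGA6 was -0.44 (SE 0.13, 95% interval -0.71 to -0.17), with an unadjusted p of 0.00306 and an adjusted p of 0.259. No subunit was called in this comparison, and 0.0545% of all probe sets were. Without E13 control femur replicate 3, the array with 8.87, the difference was -0.57 and ITGA6 was called (adjusted p = 0.0106). Within codes it was -0.61 for 05, -0.52 for 07 and -0.07 for 09, the last resting on a single femur array.

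At E15 the ITGA6 arrays of femur and TBT did not overlap. Immobilised femur had 8.06, 8.29 and 8.01 against 8.72, 8.72 and 8.55 in immobilised TBT, a difference of -0.54 (SE 0.18, adjusted p = 0.14), and with the code in the fit it was -0.38 (SE 0.27, adjusted p = 0.66). Control femur had 8.07 and 8.06 against 8.51, 8.48 and 8.20 in control TBT, a difference of -0.33 (adjusted p = 0.461), or -0.17 with the code in the fit. None of the 8 subunits was called between immobilised femur and immobilised TBT, against 2.04% of all probe sets, and femur arrays lay wholly below TBT arrays for 9.66% of all probe sets. For control femur against control TBT the latter share was 16.1%.

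ITGA6 also stood lower at E15 than before in the TBT, at 8.40 against 8.85 over E12 and E13 (-0.45, SE 0.16, adjusted p = 0.0779), and on a fit of the groups compared alone it was called (adjusted p = 0.0406). No E15 control TBT array reached the lowest of the 6 younger ones, as for 8.79% of all probe sets. In the femur the difference was -0.34 (adjusted p = 0.227), and the groups overlapped. With immobilisation it was 0.27 in the TBT, where all 3 immobilised arrays lay above the control arrays, as for 13.1% of all probe sets (95% interval -0.11 to 0.65, adjusted p = 0.468), and 0.06 in the femur (adjusted p = 0.921). The second ITGA6 probe set (15536512) followed the first (15552229) with r = 0.936 over the arrays and gave -0.38 for femur against TBT at E12 and E13, -0.45 in immobilised cartilage and -0.42 for stage in the TBT, none called. With immobilisation it gave 0.13 in the TBT (adjusted p = 0.762) and -0.01 in the femur (adjusted p = 0.99).

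**Figure D4:**
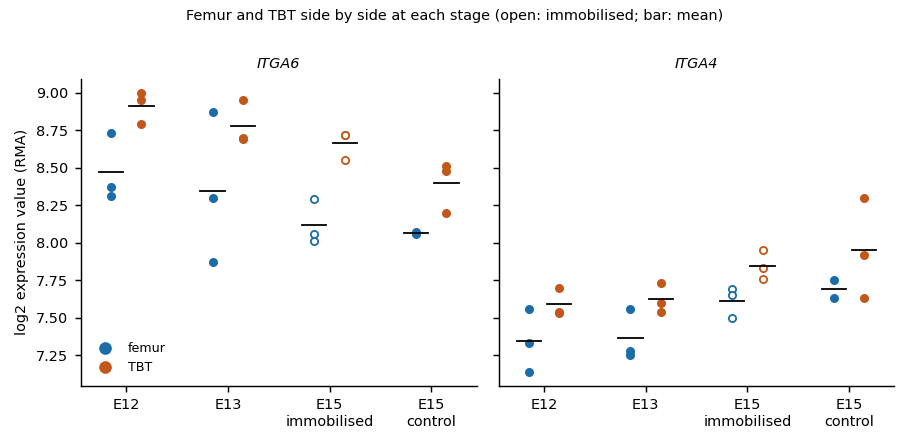
Log2 expression value (y axis, RMA) of ITGA6 and ITGA4 in each array of femur (blue, left of each pair) and TBT (orange, right) at E12, E13, E15 immobilised and E15 control (x axis). Bars are means and open circles immobilised arrays; the femur mean is below the TBT mean in all 8 pairs, by 0.33 to 0.54 for ITGA6 and by 0.23 to 0.26 for ITGA4, and neither gene was called between femur and TBT.

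ITGA4 binds fibronectin and VCAM1 and is known from leukocytes and from migrating cells of the embryo. It had 7.14, 7.56 and 7.33 at E12, 7.25, 7.28 and 7.56 at E13 and 7.63 and 7.75 at E15 in control femur, where both E15 arrays exceeded all younger ones, as for 13.1% of all probe sets. In control TBT it had 7.53, 7.54 and 7.70, then 7.73, 7.54 and 7.60, then 7.92, 8.30 and 7.63. The difference was 0.34 in both elements (SE 0.14 and adjusted p = 0.12 in the femur, SE 0.12 and adjusted p = 0.0813 in the TBT), and neither was called. Without E15 control TBT replicate 3, the array with 7.63, ITGA4 was called in the TBT (0.50, adjusted p = 0.0311).

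The femur mean of ITGA4 lay under that of the TBT at all stages by 0.23 to 0.26, and over E12 and E13 the difference was -0.25 (SE 0.10, adjusted p = 0.519). Immobilised arrays of ITGA4 were at 7.50, 7.69 and 7.65 in the femur and 7.76, 7.83 and 7.95 in the TBT. They overlapped with the controls in both elements, at differences of -0.08 and -0.10 (adjusted p = 0.851 and 0.765). The blood cell markers rose with stage as given above, and their part in the values of ITGA4 was not tested.

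ITGA9 binds tenascin-C and osteopontin and is the closest relative of ITGA4. In control TBT it averaged 6.43 at E12, 6.37 at E13 and 6.70 at E15, and all 3 E15 arrays (6.65, 6.60 and 6.86) exceeded the younger ones, whose highest was 6.46, as for 6.16% of all probe sets. The difference of 0.30 (SE 0.14, adjusted p = 0.175) was not called, nor was that of 0.27 in the femur (adjusted p = 0.284). Immobilised arrays ran from 6.44 to 6.99 in the femur and from 6.54 to 6.97 in the TBT, around their controls at 6.53 to 6.62 and 6.60 to 6.86.

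ITGA8, a receptor chain for nephronectin and other RGD ligands, varied by up to 0.45 (SD) within groups. Immobilised femur had 7.47, 7.13 and 6.89 against 6.51 and 7.06 in control femur, a difference of 0.38 (95% interval -0.26 to 1.01, adjusted p = 0.542). Immobilised TBT had 6.67, 6.62 and 6.97 against 6.89, 7.24 and 6.35 in control TBT (-0.07, 95% interval -0.64 to 0.49). NPNT, which encodes nephronectin, differed by 0.09 in the femur and 0.06 in the TBT, not called in either.

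The 8 subunits had a median difference of -0.01 with immobilisation of the femur and -0.09 with immobilisation of the TBT, against medians of 0.00 and 0.01 over all probe sets. With stage the medians were 0.22 in the femur and 0.15 in the TBT, with 6 of 8 above 0 in each, against 0.01 and -0.01 over all probe sets. In the TBT 5 of the 8 had an unadjusted p under 0.05, as had 24.9% of all probe sets.

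Of 17 other members of the family, 6 are on the array and 4 were tested, ITGA11, ITGB2, ITGB8 and ITGBL1. ITGBL1, an integrin-like secreted protein without a transmembrane part, had 10.65, 10.84 and 10.12 in immobilised femur against 9.54 and 9.34 in control femur, a rise of 1.10 (SE 0.20, adjusted p = 0.00341). The arrays did not overlap, as in this direction for 18.6% of all probe sets, and 4.39% of all probe sets were called in this comparison. The call was lost on the 5 arrays alone (adjusted p = 0.146) and without control femur replicate 2 (adjusted p = 0.0729). Immobilised TBT had 9.78, 10.04 and 9.88 against 9.74, 9.65 and 9.66 in control TBT (0.22, adjusted p = 0.563), and the difference of the effects was 0.88 (adjusted p = 0.285).

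ITGB2, the β chain of leukocyte integrins and a member of the leukocyte list too, rose with stage by 0.84 in each element (adjusted p = 0.0272 in the femur and 0.0149 in the TBT), calls lost under 7 of 17 alternatives in the femur and 2 of 18 in the TBT. Without the E15 control arrays its spread falls under the filter limit of 10, so it was tested through the groups where it is high. Without any filter its limma adjusted p was 0.0504 in the femur and 0.0262 in the TBT. With the array code as a block its limma adjusted p was 0.088 in the femur and 0.0341 in the TBT. It had 5.46, 4.64 and 5.48 in immobilised TBT and 5.45, 6.15 and 5.94 in control TBT, which overlap (-0.65, adjusted p = 0.122). ITGB8, a partner of ITGAV in the activation of TGF-β, rose by 0.55 with stage in the femur (adjusted p = 0.0205, lost under 5 of 18 alternatives) and had a difference of 0.32 in the TBT. ITGB8 has more than 1 probe set, and the mean over them rose by only 0.36 in the femur (limma adjusted p = 0.104). With the array code as a block the femur rise was 0.49 (limma adjusted p = 0.0861). Over all probe sets 12.2% were called with stage in the femur (5.26% higher) and 9.46% in the TBT (3.74% higher). Immobilised femur had 8.05, 8.20 and 8.26 of ITGB8 against 8.64 and 8.71 in control femur (-0.51, adjusted p = 0.0853). These arrays did not overlap, as in this direction for 17.8% of all probe sets. ITGA11, a collagen receptor chain, ran from 8.12 to 8.69 over the arrays and was not called, and ITGA2, ITGA3 and ITGA10 have no probe set of their own here.

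Of 24 genes that link integrin tails to actin, 11 were tested, TLN1 and VCL not among them. LIMS2 and PARVB were called lower with immobilisation in both elements, and no other linker was called (medians of the 11 -0.02 in the femur and -0.05 in the TBT). Over all probe sets 2.5% were called lower in the femur and 2.86% in the TBT. LIMS2 encodes PINCH2 and PARVB encodes β-parvin, which bind to integrin-linked kinase from either side. LIMS2 had 8.52, 8.31 and 8.68 in immobilised femur against 8.88 and 8.90 in control femur (-0.39, SE 0.09, adjusted p = 0.0252), and 8.67, 8.56 and 8.69 in immobilised TBT against 8.90, 9.07 and 8.86 in control TBT (-0.30, SE 0.08, adjusted p = 0.04). The arrays did not overlap in either element, as in this direction for 17.8% of all probe sets in the femur and 10.9% in the TBT.

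PARVB had 8.63, 8.73 and 8.67 in immobilised femur against 9.02 and 9.19 in control femur (-0.43, SE 0.11, adjusted p = 0.0402). In immobilised TBT it had 8.95, 8.94 and 8.95 against 9.43, 9.36 and 9.24 in control TBT (-0.40, SE 0.10, adjusted p = 0.0273). These 4 calls lay near the threshold: with the femur they held under 9 of 15 alternatives for LIMS2 and 8 of 15 for PARVB, and with the TBT under 6 of 16 and 9 of 16. ILK itself was not called. Skeletal muscle markers fell in the same comparisons, at medians of -2.04 in the femur and -2.02 in the TBT. In each element 11 of 12 were called lower, against 2.5% of all probe sets in the femur and 2.86% in the TBT. The part of these markers in the fall of the linkers was not tested.

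With stage, PARVA rose by 0.49 in the femur (adjusted p = 0.00294) and FERMT2, the kindlin of most adherent cells, fell by 0.35 (adjusted p = 0.0375). They were the only linkers called there, and over all probe sets 12.2% were called. The FERMT2 call was lost under 7 of 18 alternatives, among them no filter and leaving out E15 control femur replicate 1 or replicate 2. That of PARVA was lost on the groups compared alone and without E15 control femur replicate 1. No linker was called with stage in the TBT, against 9.46% of all probe sets. Of 14 kinases and adaptors tested, 1 was called higher and 1 lower with immobilisation of the TBT, where 5.74% of all probe sets were called. PTK2, which is focal adhesion kinase, was the 1 called higher. It had 9.33, 9.39 and 9.34 against 9.16, 8.99 and 8.87 in control TBT (0.35, SE 0.08, adjusted p = 0.0149), and the call was lost on the 6 arrays alone, without control replicate 3 and without immobilised replicate 2. In the femur PTK2 had 9.34, 9.15 and 9.22 against 9.13 and 9.08 (0.13, not called). With stage it fell by 0.24 in the TBT (adjusted p = 0.0381, kept under 8 of 19 alternatives), on the same control arrays. RAP1B, a GTPase that switches integrins on, fell by 0.31 with immobilisation of the TBT (adjusted p = 0.0473, kept under 6 of 16 alternatives) and rose by 0.41 with stage in the femur (adjusted p = 0.00752). The femur call of RAP1B was lost on the groups compared alone and without E15 control femur replicate 1 or replicate 2.

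The members of the list of fibronectin-type ligands were not checked for an RGD motif. Of 20 tested, POSTN, periostin of periosteum and fibrous tissue, was called lower with immobilisation in both elements. It had 11.41, 11.26 and 11.30 in immobilised femur against 11.90 and 12.03 in control femur (-0.64, SE 0.15, adjusted p = 0.0241), and 10.96, 10.89 and 10.89 in immobilised TBT against 11.71, 12.16 and 11.42 in control TBT (-0.85, SE 0.14, adjusted p = 0.00125). The arrays did not overlap in either element, as in this direction for 17.8% of all probe sets in the femur and 10.9% in the TBT. In the femur the call was kept under 10 of 15 alternatives and lost without either control array or without immobilised replicate 2 (adjusted p up to 0.202). POSTN is also on the list of osteoblasts and periosteum, of which it was the only 1 of 11 genes called in the femur (9 above 0, median 0.20) and 1 of 3 called lower in the TBT (7 below 0, median -0.31). Of all probe sets 2.5% were called lower in the femur and 2.86% in the TBT, where 5.74% were called in either direction. In the TBT FREM1, a basement membrane protein, rose by 0.89 (adjusted p = 0.0173) and EDIL3, which binds ITGAV with ITGB3 through its RGD motif, rose by 0.39 (adjusted p = 0.0216). These calls were lost under 5 of 16 alternatives for FREM1 and 7 of 16 for EDIL3, in both without control replicate 3, immobilised replicate 1 or immobilised replicate 3 (adjusted p up to 0.211 and 0.129). On the same control arrays FREM1 was called lower with stage in the TBT (-0.68, adjusted p = 0.0225). The stage call was lost on the groups compared alone and without E15 control TBT replicate 2 or replicate 3. Over all alternatives the stage difference ran from -0.93 to -0.48, with an adjusted p of up to 0.196. FN1, the classical ligand, lay between 11.63 and 12.23 in all arrays and differed by 0.12 in the femur and -0.12 in the TBT (not called). SPP1, or osteopontin, had a difference of 0.51 in the femur and -0.11 in the TBT (not called).

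Of 11 collagens tested, the 3 chains of collagen VI fell with immobilisation of the TBT, COL6A1 by 0.59 (adjusted p = 0.0411), COL6A2 by 0.76 (adjusted p = 0.00573) and COL6A3 by 0.68 (adjusted p = 0.00759). Of all probe sets 2.86% were called lower in this comparison. The call of COL6A1 was lost under 7 of 16 alternatives, and without control replicate 2 its difference was -0.31 (adjusted p = 0.106). COL6A2 and COL6A3 lost theirs on the 6 arrays alone. COL6A2 was at most 10.08 in immobilised TBT and 10.58 to 11.19 in control TBT. In the femur their differences were -0.39, -0.59 and -0.38, none called. For the difference between the effects, femur minus TBT, none of the 11 collagens was called, against 0.182% of all probe sets. COL6A2 was called higher in immobilised femur than in immobilised TBT, at 0.53 to 0.67 over the alternatives, where 2.04% of all probe sets were called. That call was kept under 8 of 16 alternatives and lost with the array code as a block. With stage the 3 collagen VI chains and COL4A1 were called higher in both elements, by 0.83 to 1.12 in the femur and by 0.62 to 0.81 in the TBT. Over all probe sets 5.26% were called higher in the femur and 3.74% in the TBT. All 11 collagens lay above 0 in both elements, at medians of 0.28 in the femur and 0.38 in the TBT. COL6A1 and COL6A3 are also on the list of tendon and fibrous tissue, of which 4 of 15 genes were called lower with immobilisation of the TBT, these 2 among them, and 1, TNMD, was called higher (1.12, adjusted p = 0.00629), with 5 of 15 above 0.

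Of 7 laminins and basement membrane genes tested, LAMA3, a laminin α chain of epithelia, rose with immobilisation in both elements. It had 6.77, 6.66 and 6.54 in immobilised femur against 5.59 and 5.49 in control femur (1.12, SE 0.26, adjusted p = 0.0199). In immobilised TBT it had 6.33, 5.84 and 6.38 against 4.79, 5.61 and 5.04 in control TBT (1.04, SE 0.23, adjusted p = 0.0128). No control array of LAMA3 lay above 5.61, and the control arrays alone spread too little to pass the filter limit of 10. LAMA3 was thus tested through the immobilised groups, where it is high. Both calls were kept without any filter. The calls were kept under 10 of 14 alternatives in the femur and 11 of 15 in the TBT, 3 of the losses in each element coming from leaving out 1 array (adjusted p up to 0.156 in the femur and 0.107 in the TBT over all alternatives). The other measured laminin chains were not called with immobilisation. Over all probe sets 4.39% were called with immobilisation of the femur and 5.74% with immobilisation of the TBT. With stage LAMA2 fell, by 0.89 in the femur (adjusted p = 0.00447) and by 0.78 in the TBT (adjusted p = 0.0046), as did FRAS1, by 0.90 (adjusted p = 0.000919) and by 0.81 (adjusted p = 0.000574).

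Among 7 cell surface ligands, VCAM1, the ligand of ITGA4 with ITGB1, rose with stage by 1.19 in the femur (adjusted p = 0.00239) and by 0.89 in the TBT (adjusted p = 0.00604). It lay at 4.72 to 5.53 at E12 and E13, where its spread on the linear scale was under the filter limit. VCAM1 was thus tested through the E15 arrays, where it is high, so the filter favours a stage difference. Both stage calls of VCAM1 were kept without any filter. Control femur had 4.85, 4.72 and 5.05 at E12, 5.15, 4.96 and 5.44 at E13 and 6.44 and 6.0 at E15. Immobilised TBT had 6.21, 5.27 and 5.94 and control TBT 6.06, 6.55 and 6.30 at E15, and immobilised femur 5.78, 6.17 and 5.64 against 6.44 and 6.0 in control femur, and neither element was called. The tetraspanins CD9 and CD81, which sit beside integrins in the membrane, rose with stage in the femur by 0.55 and 0.37 (adjusted p = 0.0142 and 0.0161). With stage 4 of the 20 fibronectin-type ligands were called higher and 2 lower in the femur, and 3 higher and 2 lower in the TBT. Over all probe sets 12.2% were called in the femur (5.26% higher) and 9.46% in the TBT (3.74% higher). IBSP and TGFBI, RGD proteins of bone and matrix, rose with stage in both elements, IBSP by 1.18 in the femur and 1.06 in the TBT and TGFBI by 0.70 in the femur and 0.56 in the TBT. CYR61, a matrix protein induced by growth factors, fell in the femur by 0.47 (adjusted p = 0.0196). With the array code as a block the femur stage calls of IBSP, TGFBI, CYR61, CD9 and COL4A1 were lost. Without E15 control femur replicate 2 the femur calls of IBSP (0.76, adjusted p = 0.229), TGFBI (0.59, adjusted p = 0.114), CYR61, CD9 and CD81 were lost, as were those of COL6A1, COL6A3, COL4A1 and LAMA2, and without replicate 1 those of VCAM1, CYR61, CD9 and CD81. In the TBT the calls of IBSP (0.85, adjusted p = 0.0897) and LAMA2 were lost without E15 control replicate 3 and that of TGFBI (0.47, adjusted p = 0.0503) without replicate 2. That of FREM1 was lost without replicate 2 and also without replicate 3.

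**Figure D5:**
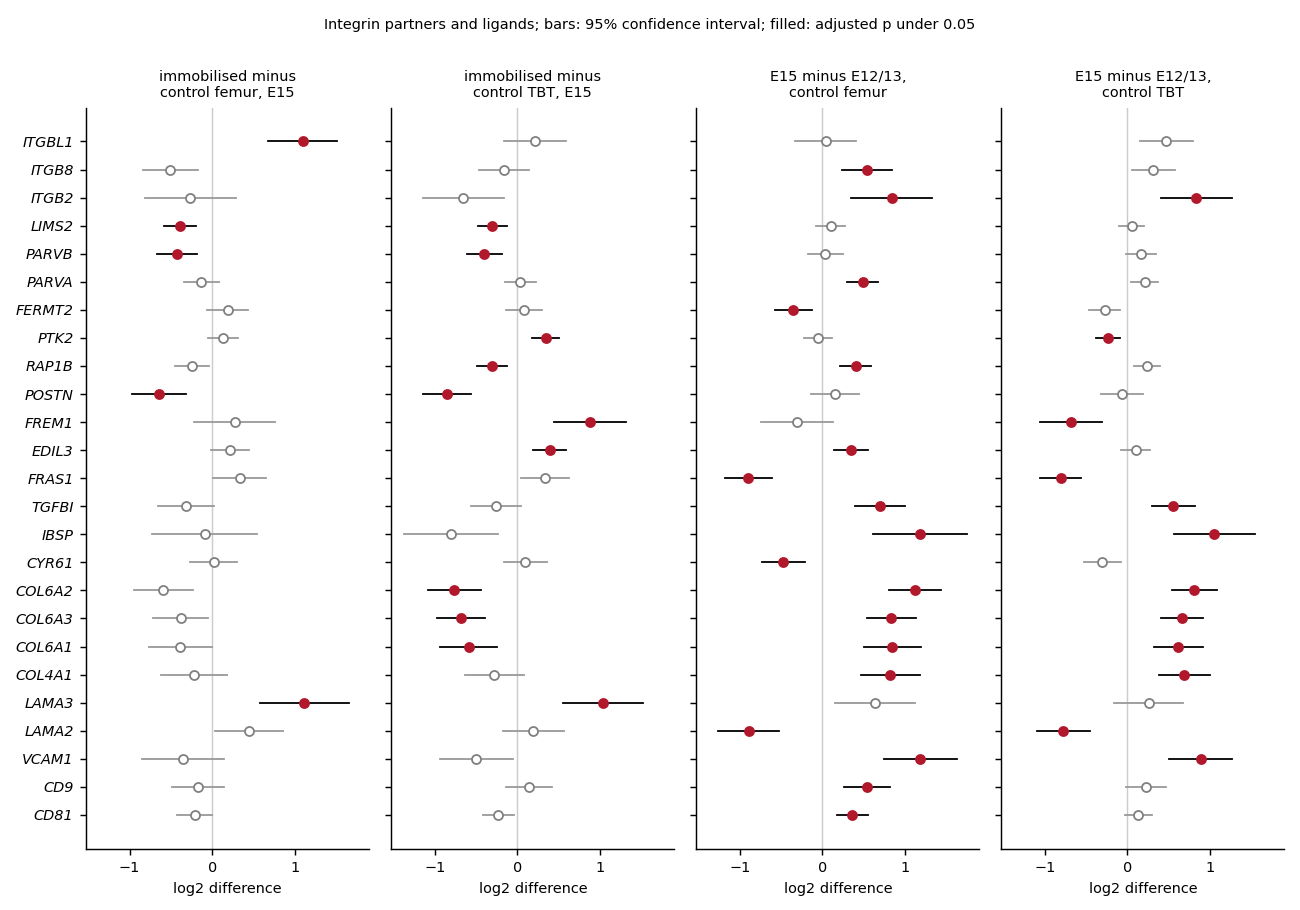
Log2 difference (x axis) of 25 integrin relatives, linkers, signalling partners and ligands (rows), up to 4 called genes of each list and comparison, in 4 comparisons, immobilised minus control at E15 in femur and TBT and E15 minus the mean of E12 and E13 in control femur and control TBT, with 95% confidence intervals from limma. Filled red points are called; LIMS2, PARVB and POSTN are below 0 and LAMA3 is above 0 in both immobilisation panels, and the collagen VI chains are above 0 in both stage panels.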

How the data were processed

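RNA of growth cartilage pools was measured on Affymetrix chicken arrays. The deposited log2 values (20804 probe sets, 23 arrays) were made by the authors with RMA, which corrects background, normalises quantiles and gives 1 value per probe set. The labels name affy, the methods aroma.affymetrix, and neither version nor genome build is given in the sources used here. Of the probe sets, 12300 carry 1 gene symbol, 256 several and 8248 none. They were not normalised again.

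Following the methods, probe sets with a standard deviation above 10 on the linear scale were kept (11004). Means of 8 groups were fitted over all 23 arrays with limma 3.58.1 in R 4.3.3 with 15 residual degrees of freedom and Benjamini-Hochberg adjustment. E12 and E13 were given equal weight in their mean. SAM, the test of the methods, was not run, since 3 arrays against 3 leave it few permutations. The fit was tested on simulated data with known shifts in 200 of 11004 probe sets. Of shifts of 0.5, 35% were called for immobilisation of the femur and 46% for immobilisation of the TBT. Among the comparisons simulated, the lowest share was 27%, for control femur against control TBT at E15, and the highest 71%, for the same at E12/13. Not simulated were E13 against E12, immobilised femur against immobilised TBT, and the differences between femur and TBT in immobilisation effect and stage change. These differences had median SEs of 0.194 and 0.171, above those of the comparisons simulated (at most 0.145). Of shifts of 1, 78.5% to 88.5% were called. A gene that was not called may thus still differ by 0.5. P-values measure the spread between pools, and the number of arrays limits the precision.

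The subunits and gene lists were chosen with earlier results of these data known, and 2 list genes were matched through an alias. All 10 subunits are named, and of each list up to 4 called genes of lowest p in a comparison. ITGA2, ITGA3, ITGA10, ITGA11 and ITGB8 are named whether called or not, and RAC2, SPI1 and VAT1L by likeness to ITGB3. ILK, ATP6V0D2, MMP9, FN1, SPP1, NPNT, TNMD and the markers ACAN, COL9A1, MATN1, HBAD, HBAA, CTSK, ACP5 and CSF1R fall outside this rule, having been picked with their values in view. Alternatives were no filter, a filter on mean level, a second quantile normalisation, centring on medians, only the groups compared, the array code or replicate number as a block, a robust trended variance, the mean over probe sets of a gene, and leaving out each array.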

Additional observations from a re-analysis of the deposited data

How the results depend on the processing

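No integrin subunit reversed its direction where it was called. The rise of ITGB3 with stage in the TBT was called under all 18 alternatives in which it was tested, between 0.97 and 1.36 (adjusted p 0.000384 to 0.0129). Its fall with immobilisation of the TBT was called under 11 of 15, between -1.13 and -0.73 (adjusted p 0.00385 to 0.172). The number of subunits called with immobilisation of the TBT was 1 and became 0 on the groups compared alone, and under a filter on mean level, which leaves ITGB3 out; leaving out single arrays gave 0 to 1, with 0 without control replicate 3, immobilised replicate 2 or immobilised replicate 3. For stage in the TBT it was 1, became 0 under the filter on mean level and 2 on the groups compared alone, where ITGA6 was added (-0.45, adjusted p = 0.0406). Leaving out single arrays gave 1 to 2 there, with ITGA4 added (0.50, adjusted p = 0.0311) without E15 control TBT replicate 3. For femur against TBT at E12 and E13 leaving out single arrays gave 0 to 1, with ITGA6 called without E13 control femur replicate 3. All other counts of subunits stayed as they were.

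Over all pairs of arrays of different groups, the mean r of deviations was 0.003 for the same replicate number and -0.002 for other numbers. Most of these pairs differ in stage or treatment, and femur and TBT of the same stage and treatment were not looked at apart. Whether the replicate number pairs femur with TBT was thus not tested. With the replicate number as a block, 0 subunits were called with immobilisation of the femur and 1 of the TBT, and 0 and 1 with stage; ITGB3 was at -0.91 (adjusted p = 0.0236) and 1.14 (adjusted p = 0.00209). With the array code as a block ITGB3 was at -0.85 (adjusted p = 0.0366) and 1.08 (adjusted p = 0.00433). Over all probe sets, calls between immobilised femur and immobilised TBT numbered 225, or 17 with the code as a block, and between the elements in E15 controls they numbered 23, or 0 with the code and 8 with the replicate number as a block.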
